A study of Mus musculus with 2 samples.

Results

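Chromatin accessibility was described at 9 genes of the BCL2 family in naive resting CD8+ T cells of the mouse. The members were Bcl2, Mcl1, Bcl2l1, Bax, Bak1, Bcl2l11, Bad, Bbc3 and Pmaip1, chosen by name from the 21827 protein-coding genes of the annotation. For each member, every DNase peak and footprint within the gene body and 25 kb either side was taken from each library, and that window is called the locus. BCL2 family proteins set whether the outer mitochondrial membrane is permeabilised, the committing step of intrinsic apoptosis. Anti-apoptotic members hold the effectors in check, the effectors form the membrane pores, and BH3-only proteins relay death signals by binding either kind. Naive T cells are known to depend on this balance for survival, with interleukin 7 sustaining Bcl2 and with Bcl2l11, which encodes BIM, as its main opponent.

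DNase-seq reads out accessible DNA by cutting nuclei with the enzyme DNase I and sequencing the cut ends. The study held 1 group of 2 libraries, labelled biological replicates 2 and 3 with technical replicate 1 each, so no condition was compared and no test between groups was possible. The cells were primary naive resting CD8+ alpha-beta T cells of male adult B6CASTF1/J mice aged 2 months, an F1 hybrid of a C57BL/6 and a CAST parent. The labels gave the libraries separate biosamples and 1 shared donor entry, so their spread may be technical. How the cells were purified was not stated.

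Replicate 2 had the longer lists, with 38223 peaks in its stricter list and 53597 in its permissive list. Replicate 3 had 17061 stricter and 24844 permissive peaks. Peaks of the stricter lists reached false discovery rates of 0.001 or less, and those of the permissive lists 0.05 or less. Footprints, short stretches protected from cutting, numbered 146244 in replicate 2 and 29967 in replicate 3. The step between signal values would imply, for a scale of tags per 1e+06, a depth of 1.34e+08 tags for replicate 2 and 2.21e+07 for replicate 3, a ratio of 6.05. Absence of a peak in replicate 3 is reported as not detected there, and the part of depth in it was not tested. The labelled cell type was checked on promoters: Cd8b1 and Runx3 were open in both libraries, and Cd8a had no stricter promoter peak in either. Of 9 measured T cell markers, 3 were open in both libraries and 6 in replicate 2 alone, and of 7 markers of the naive state 1 was open in both and 4 in replicate 2 alone. The promoters of 3 CD4 markers, 6 B cell markers and 4 erythroid markers held no stricter peak in either library. Of 6 myeloid markers and 3 NK cell markers, 1 each, Itgam and Klrd1, was open in replicate 2 alone.

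Nearly every member had an accessible promoter. All 9 had a stricter peak within 1000 bp of a protein-coding start site in replicate 2, against 50.5% of all protein-coding genes. In replicate 3 the count was 8 of 9, against 40.9%, and the missing member was Mcl1. The same 8 members were open in both libraries, or 88.9%, against 40.9% of all genes. Promoter footprints were listed in both libraries for 7 of 9 members, against 38.3% of all genes, the exceptions being Mcl1 and Bcl2l11. Apart from promoters, 5 of 9 loci held a distal region open in both libraries, against 31.5% of all loci. A distal region is one that overlaps no protein-coding promoter window. An intergenic region is one outside all protein-coding genes, and noncoding genes were not considered. The share of all loci was not matched for gene length. By region, 12.8% of the distal regions in these loci were open in both libraries, against 29.6% over the genome. These are counts over genes chosen by name and carry no test.

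**Figure D1:**
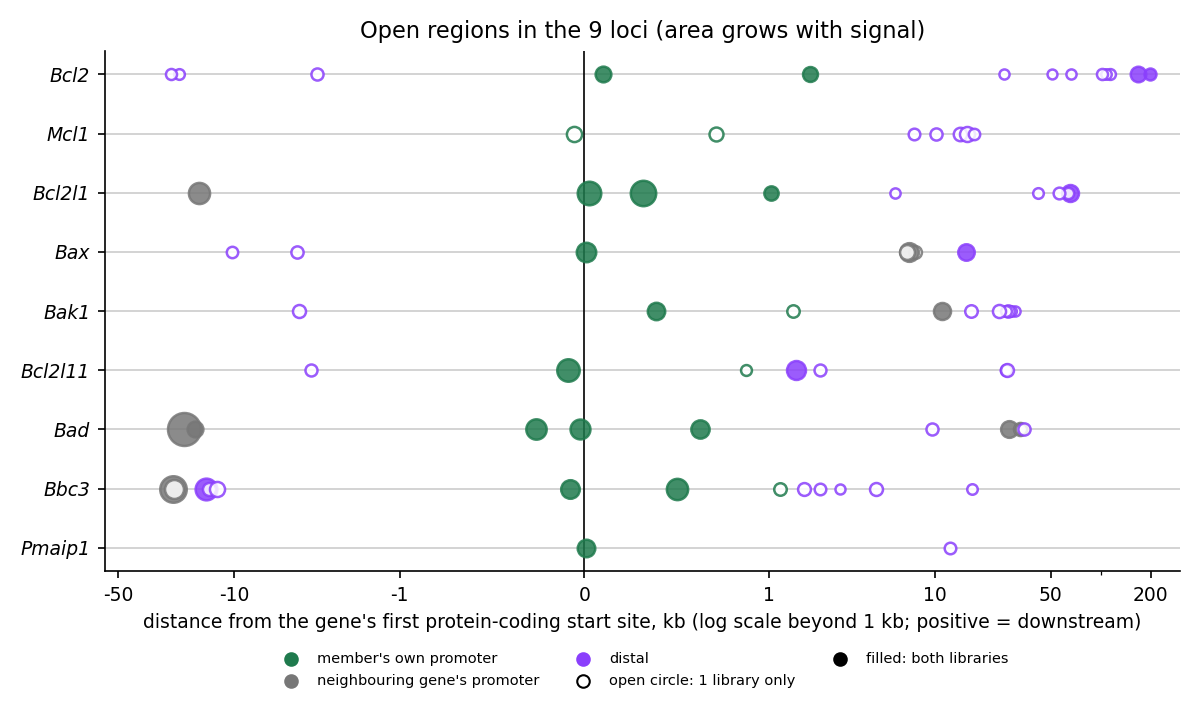
Each circle is an open region of the 9 loci, placed by its distance in kb from the gene's first protein-coding start site (log scale beyond 1 kb), with area growing with signal, filled where both libraries had it and open where 1 library had it. Mcl1 has open circles alone, and most purple distal regions (41 of 47) are open.

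Among the anti-apoptotic members, Bcl2 spans 176 kb of chromosome 1 on the minus strand (mm10, chr1:106538178-106714274). Its promoter window held a pair of regions open in both libraries. The one over the start site, chr1:106713861-106714480, had a signal of 2.54 (replicate 2) and 2.98 (replicate 3). The one inside the gene, chr1:106712401-106712620, had 2.58 in replicate 2 and 2.26 in replicate 3, so which of them was the stronger differed between the libraries. Both regions stood below the median of open promoters in each library. The strongest promoter peak of Bcl2 ranked at percentile 34.7 in replicate 2 and at 22.8 in replicate 3.

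Bcl2 also had the longest array of distal regions, 11, of which 2 were open in both libraries. One lay in the long intron of Bcl2, chr1:106544941-106545120, 168149 bp from the nearest start site, with a signal of 1.82 (replicate 2) and 2.89 (replicate 3). The other lay beyond the 3′ end, chr1:106515661-106515960, with 1.00 and 1.26 in the same order. The 6 further regions of that intron were open in replicate 2 alone, with signals from 0.537 to 0.948 and no false discovery rate listed in replicate 3. Of replicate 2 peaks with signals like these, 2.1% to 16.5% were found in replicate 3, so most peaks of such signal were missing there. A region at -3136 bp from the start site, chr1:106717321-106717500, had 1.34 in replicate 2 and 1.81 in the permissive list of replicate 3.

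The Bcl2 sequences shown are the stretch upstream of the RefSeq start, the intronic region open in both libraries, and the upstream region that held a match to the CTCF motif. They are the GRCm38 reference sequence, which is that of the C57BL/6J strain and not of the CAST allele these hybrid cells also carry. Each is written 5′ to 3′ on the strand of the gene, with footprints of replicate 2 in capitals and annotated exons left out, here and below.
Bcl2 promoter, chr1:106714291-106714480 (minus strand): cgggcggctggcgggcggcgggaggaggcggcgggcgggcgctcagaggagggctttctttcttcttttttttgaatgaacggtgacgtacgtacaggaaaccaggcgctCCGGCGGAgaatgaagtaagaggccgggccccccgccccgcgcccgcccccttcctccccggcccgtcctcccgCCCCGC
Bcl2 intron, chr1:106544941-106545120 (minus strand): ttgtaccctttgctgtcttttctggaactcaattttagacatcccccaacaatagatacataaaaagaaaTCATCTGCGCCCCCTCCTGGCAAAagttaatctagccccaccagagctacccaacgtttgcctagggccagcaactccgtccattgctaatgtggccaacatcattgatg
Bcl2 upstream, chr1:106717321-106717500 (minus strand): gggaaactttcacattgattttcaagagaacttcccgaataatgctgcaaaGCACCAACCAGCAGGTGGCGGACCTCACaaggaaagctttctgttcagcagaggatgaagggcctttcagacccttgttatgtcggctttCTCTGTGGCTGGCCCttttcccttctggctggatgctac
The single footprint of the intronic region, 24 bases long, overlapped a footprint of replicate 3. The CTCF match of the upstream region lay in its first footprint and in none of replicate 3.

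Mcl1, whose short-lived protein is required for lymphocyte survival, is a 4.39 kb gene of chromosome 3 (chr3:95658788-95663176, plus strand). Its promoter window held regions with signals of 2.72 (chr3:95658601-95658860) and 2.12 (chr3:95659301-95659700) in replicate 2. The stronger ranked at percentile 36.8 of open promoters. Neither had a stricter peak in replicate 3. A permissive peak with a signal of 2.62 overlapped the second one there, and it was the only peak of replicate 3 in the whole locus. Downstream, 5 intergenic regions between 7457 and 17088 bp from the nearest start site had signals from 1.05 to 2.64 in replicate 2, and none had a listed false discovery rate in replicate 3.

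For the stronger Mcl1 regions, most replicate 2 peaks of similar signal were found in replicate 3. Of the 1000 replicate 2 peaks with signals closest to that of the Mcl1 start-site peak, 80.9% had a stricter peak in replicate 3, and among such peaks at promoters 86.4% did. These peaks were matched on signal alone, not on false discovery rate. In replicate 2 the lowest rate was 8.33e-16 at the Mcl1 start-site peak. It was 4.7e-23 at the Bcl2 region of 2.58, 6.53e-22 at the Bad region of 2.75 and 1.1e-10 at a distal Bbc3 region of 2.67. No share for peaks of similar rate is given here. By signal, the share found was 66.4% for the second promoter region and 78.8% for the strongest downstream region. For the other downstream regions it was 60.1%, 39.2%, 26% and 19.7%. Of 6964 genes whose promoter signal in replicate 2 was at or above that of Mcl1, 127 (1.82%) had no stricter promoter peak in replicate 3. Mcl1 lies at the lower edge of that set, which reaches up to the strongest promoters. The 1.82% is therefore not a share for promoters of like signal. By false discovery rate, replicate 2 listed 2820 bp of the locus at or below 0.001, and replicate 3 listed 0 bp, with 76 bp at or below 0.05 and a lowest value of 0.0195. Footprints in the locus numbered 29 in replicate 2 and 0 in replicate 3. In the 250 kb on either side, with the locus left out, 15 of 24 replicate 2 peaks (62.5%) were found in replicate 3. Those peaks were not matched in signal or rate to the peaks of the locus. Why replicate 3 had no stricter peak in the locus was not tested.

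**Figure D2:**
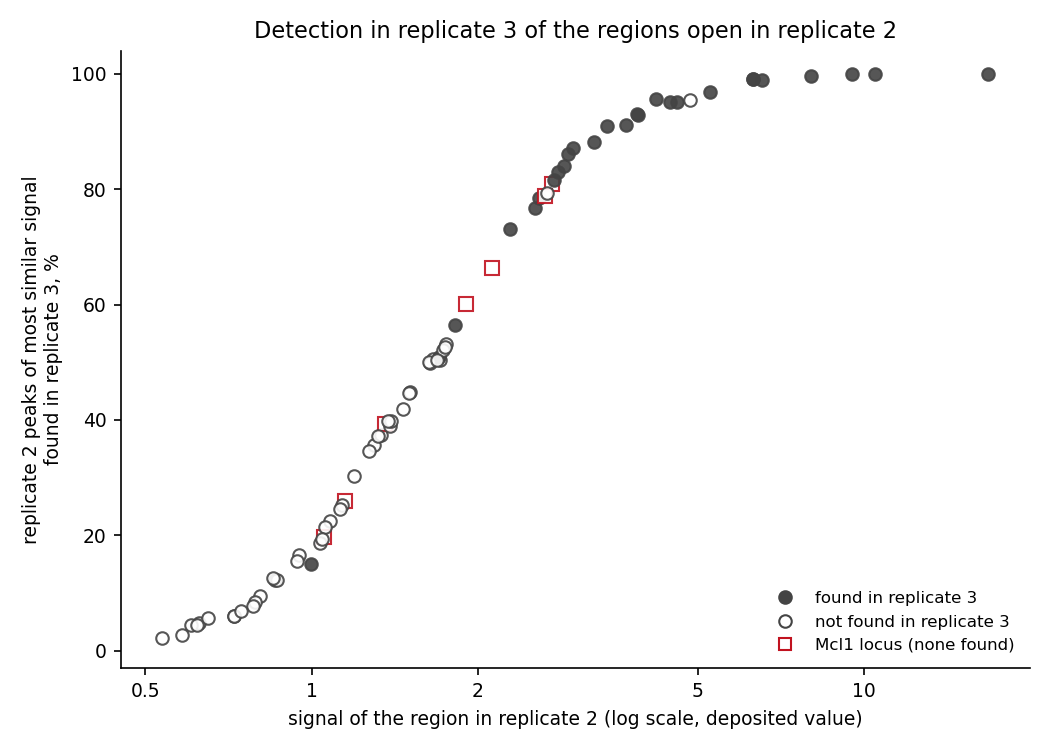
Each point is a region open in replicate 2, with its signal there on the horizontal log axis and, on the vertical axis, the percent of the 1000 replicate 2 peaks of most similar signal that were found in replicate 3. Filled points were found in replicate 3, and the 7 Mcl1 regions (red squares) were all missed, the strongest of them where 80.9% of similar peaks were found.

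The Mcl1 sequences shown are the bases before the RefSeq start and the strongest downstream region, the sites whose detection differed between the libraries.
Mcl1 promoter, chr3:95658601-95658720 (plus strand): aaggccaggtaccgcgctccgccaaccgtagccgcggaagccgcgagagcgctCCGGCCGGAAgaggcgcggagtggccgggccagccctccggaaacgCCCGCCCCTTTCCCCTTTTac
Mcl1 downstream, chr3:95674281-95674480 (plus strand): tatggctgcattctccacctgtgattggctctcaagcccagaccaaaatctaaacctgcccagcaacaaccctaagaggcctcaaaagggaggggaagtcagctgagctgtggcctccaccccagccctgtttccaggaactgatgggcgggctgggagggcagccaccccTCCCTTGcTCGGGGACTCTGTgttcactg
The promoter stretch held 1 match each to GGGCGG, the core recognised by SP and KLF factors, and to CCGGAA, the core of ETS factors, in footprints of replicate 2. Motifs were searched on both strands, and a match was taken as in a footprint where it overlapped one and reached at most 5 bp past it.

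Bcl2l1 encodes BCL-xL and lies on the minus strand of chromosome 2 (chr2:152780668-152831728). It had the most open promoter of the 9 members. The region inside the first intron, chr2:152831261-152831560, had a signal of 9.53 (replicate 2) and 8.31 (replicate 3). The adjoining region over the start site, chr2:152831581-152831820, had 8.03 in replicate 2 and 6.73 in replicate 3. A further one at an internal start site, chr2:152830581-152830800, had 2.28 and 1.90 in the same order. The strongest peak ranked at percentile 92.7 of open promoters in replicate 2 and at 88.2 in replicate 3. Beyond the 3′ end, the intergenic region chr2:152766581-152766760 had 3.43 in replicate 2 and 3.66 in replicate 3, and 4 other distal regions, with signals from 0.649 to 1.19, were open in replicate 2 alone.

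The Bcl2l1 sequences shown are the intronic part of its strongest promoter region and the intergenic region, both with footprints in each library.
Bcl2l1 first intron, chr2:152831261-152831427 (minus strand): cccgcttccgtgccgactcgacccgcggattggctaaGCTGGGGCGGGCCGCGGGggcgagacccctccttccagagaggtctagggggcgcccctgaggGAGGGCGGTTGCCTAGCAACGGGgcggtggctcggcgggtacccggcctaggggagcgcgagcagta
Bcl2l1 distal, chr2:152766581-152766760 (minus strand): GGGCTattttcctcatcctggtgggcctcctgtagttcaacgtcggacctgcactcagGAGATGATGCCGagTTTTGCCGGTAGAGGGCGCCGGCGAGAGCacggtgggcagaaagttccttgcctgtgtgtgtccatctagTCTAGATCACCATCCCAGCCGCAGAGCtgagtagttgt
The first-intron stretch held GGGCGG in footprints of both libraries. The distal region held 4 footprints in replicate 2 and 2 in replicate 3.

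The effectors ranked between percentiles 35.6 and 56.8 of open promoters. Bax, on the minus strand of chromosome 7 (chr7:45461697-45466898), had 1 promoter region, chr7:45466781-45467000, with a signal of 3.71 (replicate 2) and 5.15 (replicate 3). These ranked at percentiles 49.4 (replicate 2) and 56.8 (replicate 3). Its locus also held a region open in both libraries in the neighbouring gene Gys1, chr7:45451401-45451580, with 2.92 in replicate 2 and 3.39 in replicate 3. It overlapped a coding exon at 1 end, but chr7:45451401-45451562 lay outside annotated exons. The replicate 3 peak, chr7:45451484-45451542, lay within that non-exonic stretch. Bak1, on the minus strand of chromosome 17 (chr17:27019810-27029009), had 3.89 in replicate 2 and 3.75 in replicate 3 at chr17:27028521-27028720, at percentiles 51.8 (replicate 2) and 35.6 (replicate 3). That region lay over the first exon and also within a promoter window of Ggnbp1, so the signal cannot be assigned to Bak1 alone. All 7 distal regions of the Bak1 locus were open in replicate 2 alone, with signals up to 1.75.

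The Bax sequences shown are the bases upstream of its start site and the non-exonic part of the region in Gys1, which held a CTCF match in a footprint of each library.
Bax promoter, chr7:45466899-45467000 (minus strand): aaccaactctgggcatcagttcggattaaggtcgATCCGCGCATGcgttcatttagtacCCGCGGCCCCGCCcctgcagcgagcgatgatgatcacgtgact
Bax distal, chr7:45451401-45451562 (minus strand): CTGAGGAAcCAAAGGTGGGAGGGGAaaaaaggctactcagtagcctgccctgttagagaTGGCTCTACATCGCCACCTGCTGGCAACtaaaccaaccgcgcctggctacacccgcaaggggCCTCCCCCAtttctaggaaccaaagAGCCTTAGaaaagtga
In the promoter stretch, GGGCGG, read on the other strand, lay in a footprint of each library.

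The BH3-only genes ranked between percentiles 39.2 (Pmaip1, replicate 3) and 80.1 (Bcl2l11, replicate 3) of open promoters. Bcl2l11, on the plus strand of chromosome 2 (chr2:128126038-128162547), had a signal of 6.31 (replicate 2) and 7.23 (replicate 3) at its start site, chr2:128125821-128126080. These ranked at percentiles 75.6 (replicate 2) and 80.1 (replicate 3). A second region, in the first intron, chr2:128127381-128127620, had 4.20 in replicate 2 and 4.83 in replicate 3. It counted as distal by the annotation used, 1450 bp from the nearest start site, and held a RefSeq start at position 128127575. Another 3 regions inside the gene and outside its promoter window were open in replicate 2 alone, with signals from 1.08 to 1.66. The start-site region held 6 footprints in replicate 2 and 0 in replicate 3.

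The Bcl2l11 sequences shown are the bases before each of those start sites.
Bcl2l11 promoter, chr2:128125821-128126037 (plus strand): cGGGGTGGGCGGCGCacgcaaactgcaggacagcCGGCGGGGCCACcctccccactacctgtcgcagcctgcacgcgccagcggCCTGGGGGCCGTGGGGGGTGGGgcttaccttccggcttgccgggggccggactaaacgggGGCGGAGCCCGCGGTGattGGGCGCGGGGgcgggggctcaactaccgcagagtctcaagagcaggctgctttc
Bcl2l11 first intron, chr2:128127381-128127574 (plus strand): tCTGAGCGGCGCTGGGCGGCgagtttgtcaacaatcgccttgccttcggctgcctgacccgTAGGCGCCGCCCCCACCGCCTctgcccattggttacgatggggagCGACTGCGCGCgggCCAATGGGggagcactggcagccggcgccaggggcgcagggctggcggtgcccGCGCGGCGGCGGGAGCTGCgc
Both stretches held GGGCGG and CCAAT, the core recognised by NFY, in footprints of replicate 2.

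Bad, on the plus strand of chromosome 19 (chr19:6941861-6951899), shares its promoter with the divergent gene Gpr137. The region chr19:6941481-6941720 had a signal of 5.26 (replicate 2) and 5.74 (replicate 3), and chr19:6941721-6941960 had 3.25 and 5.42 in the same order. Another, chr19:6942381-6942600, had 2.75 in replicate 2 and 4.43 in replicate 3. All 3 lay in windows of both genes, so they cannot be assigned to Bad alone. The strongest region of any locus stood at a neighbour of Bad, the promoter of Esrra, with 16.8 in replicate 2 and 14.4 in replicate 3.

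Bbc3, which encodes PUMA, lies on the plus strand of chromosome 7 (chr7:16308393-16318205) and had 13 regions, as many as the far longer Bcl2 locus. Its strongest promoter region lay in the first intron, 504 bp past the start site, chr7:16310021-16310220. That region also lay just upstream of further RefSeq starts at positions 16310261 and 16310431. It had a signal of 4.45 (replicate 2) and 6.37 (replicate 3), at percentiles 58.5 (replicate 2) and 71.6 (replicate 3). The region over the start site, chr7:16309421-16309660, had 2.86 in replicate 2 and 4.61 in replicate 3. An intergenic region at -14646 bp from the start site, chr7:16294861-16295080, was higher than either promoter region in both libraries, at 6.54 in replicate 2 and 6.69 in replicate 3. It was the strongest of all 47 distal regions of the 9 loci. Its ratio of observed to expected CpG was 0.734, against medians of 0.794 over all promoter regions and 0.274 over all distal regions. The promoter of the neighbour Ccdc9 had 10.5 in replicate 2 and 9.80 in replicate 3.

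The Bbc3 sequences shown are those 3 regions, the start-site one up to the first RefSeq start.
Bbc3 promoter, chr7:16309421-16309582 (plus strand): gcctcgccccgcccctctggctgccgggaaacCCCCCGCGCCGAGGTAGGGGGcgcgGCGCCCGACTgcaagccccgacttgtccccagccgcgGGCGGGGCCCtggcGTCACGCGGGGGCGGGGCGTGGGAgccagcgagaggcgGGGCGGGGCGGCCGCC
Bbc3 first intron, chr7:16310021-16310220 (plus strand): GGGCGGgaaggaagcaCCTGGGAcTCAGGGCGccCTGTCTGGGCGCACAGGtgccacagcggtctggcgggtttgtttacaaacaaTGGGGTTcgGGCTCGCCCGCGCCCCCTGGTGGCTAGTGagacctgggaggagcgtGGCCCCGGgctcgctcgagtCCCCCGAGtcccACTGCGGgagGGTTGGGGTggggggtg
Bbc3 upstream, chr7:16294861-16295080 (plus strand): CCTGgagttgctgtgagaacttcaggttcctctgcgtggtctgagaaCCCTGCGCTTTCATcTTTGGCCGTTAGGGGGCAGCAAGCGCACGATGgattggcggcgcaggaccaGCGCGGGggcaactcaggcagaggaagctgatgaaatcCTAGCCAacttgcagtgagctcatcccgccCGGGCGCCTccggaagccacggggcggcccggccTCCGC
The first-intron region held 10 footprints in replicate 2 and 1 in replicate 3. A CTCF match lay in that footprint of replicate 3 and in one of replicate 2. A match to GTAAACA, the motif of FOXO factors, read on the other strand, lay in no footprint.

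Across the members, promoter signal was set in the order of its mean over the 2 libraries. Bcl2l1 had 8.92 ± 0.865 and Bcl2l11 6.77 ± 0.647 (SD, n = 2). Bad had 5.50 ± 0.337, Bbc3 5.41 ± 1.35 and Bax 4.43 ± 1.02. Pmaip1 had 3.93 ± 0.0622, Bak1 3.82 ± 0.103 and Bcl2 2.78 ± 0.283. The values of Bcl2l1 and of Bcl2 overlapped with those of no other member open in both libraries. Bcl2l11 with Bbc3, Bad with Bbc3, Bbc3 with Bax, Bax with Pmaip1, Bax with Bak1, and Pmaip1 with Bak1 overlapped across the libraries. Bcl2l11 and Bad, next to it in the order, did not overlap. In each library Bcl2l11 stood above Bbc3, at 6.31 against 4.45 (replicate 2) and 7.23 against 6.37 (replicate 3). Bbc3 in turn stood above Bax, at 4.45 against 3.71 (replicate 2) and 6.37 against 5.15 (replicate 3). Bad and Bbc3 changed order between the libraries, as did each pair among Bax, Pmaip1 and Bak1. The order within those pairs was therefore not settled. The median over members was 3.89 in replicate 2 (9 members) and 5.44 in replicate 3 (8 members), against 3.75 and 4.65 over all open promoters. Of the anti-apoptotic genes, Bcl2 and Mcl1 stood below that median and Bcl2l1 above it in each library that had a stricter peak. All values are the deposited signal per peak, and its scaling is not stated.

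**Figure D3:**
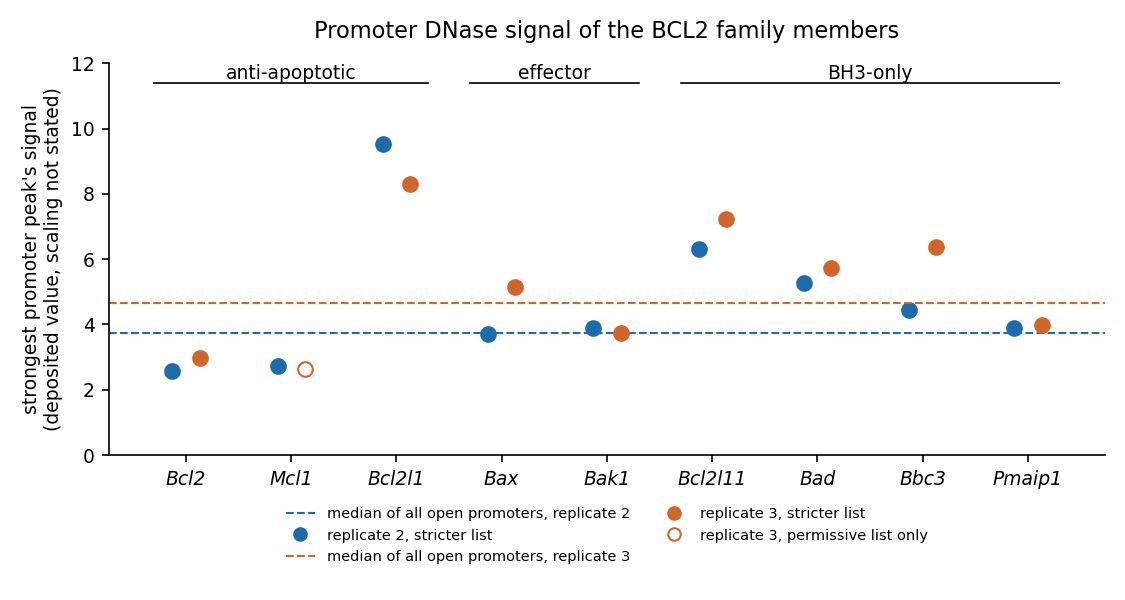
The strongest promoter peak of each member (deposited signal, linear axis) in replicate 2 (blue) and replicate 3 (orange), with dashed lines at the medians of all open promoters, 3.75 and 4.65. Bcl2l1 stands highest in both libraries, and the open circle is the permissive peak of Mcl1 at 2.62.

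The 9 loci held 79 regions, of which 27 were open in both libraries, 51 in replicate 2 alone and 1 in replicate 3 alone. The median member had 9 regions and 3 in both, against 3 and 1 over all protein-coding loci. Against the 1000 genes of most similar body length, whose medians were 1 to 3 regions, 8 of the members had more regions, and Pmaip1 had the same number. By regions open in both libraries, Bcl2l11 (2) and Pmaip1 (1) equalled the median of such genes. Mcl1 had 0 against 1, and the remaining members had more. Of 80 stricter peaks of replicate 2 in these loci, 27 (33.8%) were found in replicate 3, against 42.5% of all its peaks. By class, 14 of 19 regions at the members' own promoters (73.7%), 7 of 13 at neighbours' promoters (53.8%) and 6 of 47 distal regions (12.8%) were open in both libraries. Over the genome, the share was 57.6% of promoter regions and 29.6% of distal regions. Distal regions were 47 of the 79 in all, and 6 of the 27 open in both libraries. Of the 51 regions open in replicate 2 alone, 12 had a permissive peak in replicate 3, a count given without its share over the genome.

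At the 27 shared regions the libraries gave similar signals. The ratio of replicate 2 to replicate 3 had a median of 0.917, with a range of 0.483 to 1.41, against a median of 0.915 over all 15925 shared regions. It was below 1 at 19 of 27 regions (70.4%), against 63.0% of all. The lowest ratio stood at the Plcb3 promoter next to Bad, with 1.70 in replicate 2 and 3.52 in replicate 3. The highest stood at the Tpx2 promoter next to Bcl2l1, with 6.30 and 4.47 in the same order. Within the members' own promoters, the 3 regions of Bcl2l1 and the shared region of Bak1 had ratios above 1. The shared promoter regions of Bbc3, Bax, Bad, Bcl2l11 and Pmaip1 had ratios below 1, and those of Bcl2 fell on either side of 1.

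**Figure D4:**
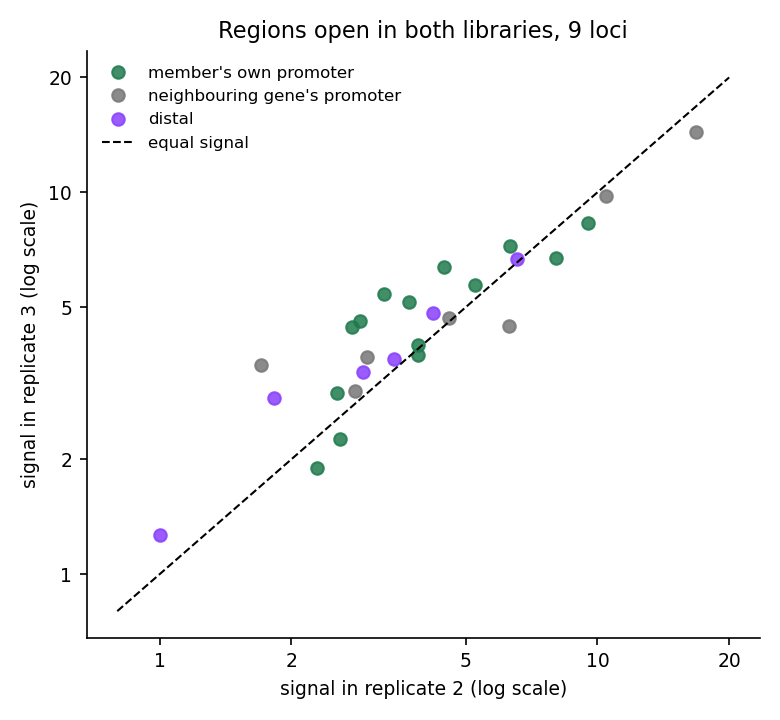
Signal in replicate 2 (horizontal, log scale) and replicate 3 (vertical, log scale) of the 27 regions open in both libraries, coloured by class, with a dashed line of equal signal. Most points (19 of 27) lie above the line, and the highest is the Esrra promoter at 16.8 and 14.4.

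The libraries differed more in footprints than in peaks. Against 80 and 28 stricter peaks, the 9 loci held 317 footprints in replicate 2 and 55 in replicate 3, with 80.1% and 92.7% of them inside stricter peaks. Of the 55 in replicate 3, 41 (74.5%) overlapped one of replicate 2, against 66.9% of all footprints of replicate 3. Bbc3 had the most, 67 in replicate 2 and 13 in replicate 3, with 21 and 4 of them in its promoter window. Bcl2l1 had 13 in its promoter window in replicate 2 and 7 in replicate 3, the highest promoter count of that library. Bcl2 had 15 and 2, and Bcl2l11 had 7 and 0. Over all genes with open promoters in both libraries, the median was 7 for replicate 2 and 3 for replicate 3.

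**Figure D5:**
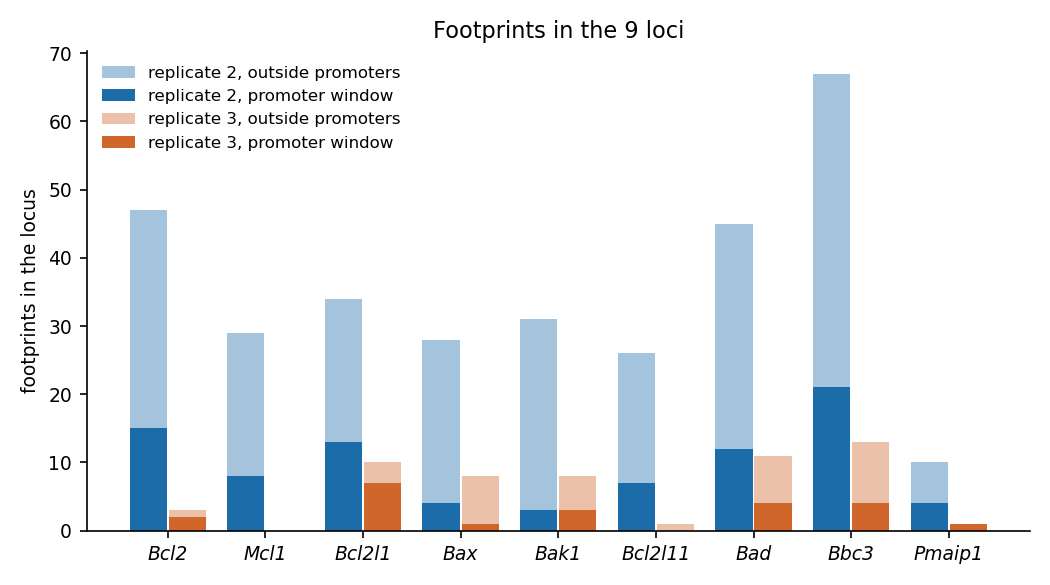
Number of footprints per locus in replicate 2 (blue, left bar) and replicate 3 (orange, right bar), with the promoter window in the darker shade. Bbc3 is highest in both libraries, at 67 and 13, and Mcl1 has none in replicate 3.

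Motif matches were counted in a window of 300 bp on the strongest promoter region of each member. GGGCGG was matched in 7 of 9 members, or 77.8%, against 63.4% of all promoter regions and 35.7% of RefSeq promoters of the same length. In 6 of them a match lay in a footprint of replicate 2, and in Bcl2l1 and Bax also in one of replicate 3. No share of matches in footprints over all promoter regions is given beside these counts. Neither Bcl2 nor Bak1 had it in that window, although the start-site region of Bcl2 did. CCAAT was matched at Bcl2l1 and Bcl2l11, against 31.1% of promoter regions. GTAAACA was matched at Bcl2l11 and Bbc3, both known as FOXO targets, against 2.35%, and lay in no footprint. The p53 motif, searched because p53 is known to induce Bax, Bbc3 and Pmaip1, had no match in the 9 windows or in 47 distal ones. It was matched in 0% of all 16452 promoter regions and 0.0275% of all distal regions, so its absence here is no feature of the members. CpG content of these windows was close to the rest: the median ratio of observed to expected CpG was 0.731, with a range of 0.400 to 1.17, against 0.794 over all promoter regions.

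In distal regions, the CTCF motif was matched in 5 of 47 windows (10.6%), against 16.4% of all distal regions. With the Bbc3 intron, 6 regions of these loci had such a match, and in all 6 it lay in a footprint of replicate 2. How often CTCF matches lie in footprints over all regions is not given, so this is not read as a trait of these loci. In the Bax distal region and the Bbc3 intron it lay in one of replicate 3 too. TTCNNNGAA, the motif of STAT factors, which carry the interleukin 7 signal, was matched in 8 of 47 windows (17.0%), against 9.08%. Of these 8, 5 were in the Bcl2 locus, 1 of them open in both libraries and none with the match in a footprint. The match in the Bcl2l1 locus lay in a footprint of replicate 2, in a region of that library alone. In the promoter windows it was matched in 0 of 9 members, against 5.57% of promoter regions. Other motifs searched stood on either side of the background. In distal windows TGTGGT, the motif of RUNX factors, was matched in 23.4% against 30.3%, and CCAAT in 36.2% against 28.9%. A match describes letters and is not evidence of binding.

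Pmaip1, which encodes NOXA, had the fewest regions, 2. Its start-site region, chr18:66458421-66458660, had a signal of 3.89 (replicate 2) and 3.97 (replicate 3), at percentiles 51.7 (replicate 2) and 39.2 (replicate 3). The only other region, 12277 bp downstream of the start site, had 1.13 in replicate 2 and no listed rate in replicate 3. The locus held 10 footprints in replicate 2 and 1 in replicate 3, which did not overlap. Its 300 bp motif window was the only one of the 9 with a match to TGACGTCA, the motif of CREB and ATF factors, against 2.86% of promoter regions. The match lay in no footprint of either library.

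The wider pathway was described from lists of named genes, by stricter promoter peaks. Of 14 other BCL2 family genes, 4 (28.6%) were open in both libraries, 4 in replicate 2 alone and 6 in neither, against 40.9% of all genes open in both. Bcl2l12 had a signal of 7.45 (replicate 2) and 6.87 (replicate 3). Bid, the BH3-only protein that links death receptors to mitochondria, had 5.88 and 6.50 in the same order. Bcl2l13 had 5.49 in replicate 2 and 5.78 in replicate 3. Bcl2a1b had 1.46 and 1.36, and the Bcl2a1 genes are near-identical copies, so reads may be split between them. Hrk and Bok had no promoter peak in any list, and Bmf had permissive peaks alone, of 0.798 in replicate 2 and 1.13 in replicate 3. Of 13 genes of the mitochondrial death pathway, which include the membrane channels Vdac1, Vdac2 and Vdac3, 11 (84.6%) were open in both libraries. Apaf1, the scaffold of the apoptosome, had 13.3 in replicate 2 and 15.3 in replicate 3. Of 8 death receptor genes, 3 (37.5%) were open in both libraries and 4, including Fas and Casp8, in replicate 2 alone. Of 15 upstream regulators, 9 (60%) were open in both, among them Trp53 with 8.04 and 7.68 and Foxo3 with 9.97 and 6.96 in replicates 2 and 3. Il7r, which encodes the interleukin 7 receptor chain, had 1.75 in replicate 2 and no stricter peak in replicate 3.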

How the data were processed

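DNase-seq was measured in 2 libraries of naive resting CD8+ T cells. Per the deposited notes, lists were derived separately for each library from alignments to mm10. No aligner or caller is named in the sources used here. The peak lists hold the authors' signal value per peak, whose scaling is not stated. The deposited q-values are false discovery rates per stretch of positions, and only values up to 0.05 are listed. The deposited footprint lists carry the constant 0.01 in their score column, so only intervals were used.

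Genes were the protein-coding genes of GENCODE M21, and sequences and extra start sites came from RefSeq on GRCm38, in which no deposited interval ran past a chromosome end. A promoter was 1000 bp either side of any protein-coding start site, a locus the gene body with 25 kb either side, and a region the union of stricter peaks sharing at least 1 bp. A promoter's signal was that of its strongest peak, and its percentile was taken among all open promoters of that library. Shares of all genes or peaks stand beside the counts of members, and no test, p-value or interval was computed. Motif matches in footprints and permissive peaks at regions of replicate 2 alone are given without such a share. Named were the 9 members, the genes of 4 pathway lists and 8 marker lists, and the neighbours whose promoters lay in a locus. The genes nearest to Bcl2 and Mcl1 in promoter signal are not reported here. The members and lists were chosen with earlier results of these data known. Trac, Trbc1 and Trbc2 were not analysed here. Python 3.11.15, numpy 2.4.6, pysam 0.24.0 and matplotlib 3.10.9 were used. The overlap code was tested on simulated data. Alternatives covered the peak list, overlap, promoter width, flank, start sites, motif background and each library alone.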

Additional observations from a re-analysis of the deposited data

How the results depend on the processing

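No paired analysis was possible because the series has 1 group. The 8 members with a promoter peak in both libraries stayed between 6 and 9, with 6 where promoters shared with a neighbouring gene were left out, an alternative chosen after seeing the data. Using 1 library alone gave 8 to 9 such members, 7 to 9 with a promoter footprint, 28 to 78 open regions in place of 27, and 6 to 47 distal regions in place of 6, the higher values without replicate 3. The permissive lists gave 14 distal regions. With flanks of 10 kb, 2 distal regions and 32 footprints of replicate 3 (main value 55) were counted. With flanks of 50 kb there were 41 regions in both libraries and 95 footprints of replicate 3. The gene body alone gave 15 regions, 2 distal regions, and 127 and 23 footprints in replicates 2 and 3. The median percentile of promoter signal over members was 59.1, and 51.8 to 60.4 with 1 library alone. Member and motif pairs numbered 22, and 12 when matches had to lie in footprints of replicate 2. The share of promoters with GGGCGG depended on the background, at 35.7% of RefSeq promoters and 63.4% of promoter regions. With the same number of strongest peaks kept in each library, 26 regions and 5 distal regions were open in both. With 2 libraries of 1 group, no spread between animals could be estimated.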
